A study of Mus musculus with 12 samples.

Results

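The genes described here are 10 components and targets of the Wnt pathway in intestinal stem cells (ISCs) of young and old mice. They were listed by name and role in the pathway, with earlier results of these data known, and all 10 were found among the 54232 genes of the count table. Of these, 9 passed the filter on low counts, as did 13368 genes in all, and Notum did not. They are described by role, as receptors (Lgr4, Lgr5 and Tnfrsf19), membrane ubiquitin ligases (Rnf43 and Znrf3), intracellular feedback inhibitors (Axin2 and Nkd1), a secreted feedback inhibitor (Notum) and transcription factors (Ascl2 and Sp5).

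ISCs had been isolated from the small intestine of female mice, and each of the 12 libraries for 3′-biased RNA sequencing came from 1 mouse. The 4 groups held 3 libraries each. SM6 young (2 months) and SM6 old (22 months) were wild-type C57/Bl6 mice whose ISCs were sorted by a panel of surface markers. Lgr5-GFP young (2 months) and Lgr5-GFP old (22 months) carried Lgr5-EGFP-IRES-CreERT (written with CreERT2 in the study's methods), an allele that places a green fluorescent reporter and an inducible recombinase under the Lgr5 promoter and is known to be silent in part of the crypts. For these mice the labels give the surface-marker sort as well, but the study's supplement describes a sort by GFP, so the isolations are named here as the sample titles give them. Strain and isolation change together and cannot be told apart, and for Lgr5 itself the reporter allele is a further difference between the same groups. The labels name no treatment, batch or date. Library totals ran from 970472 to 3815425 counts.

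Wnt ligands bind Frizzled and Lrp receptors and keep β-catenin from being degraded, and β-catenin then acts with TCF/LEF factors on target genes. At the crypt base this signal maintains ISCs. R-spondins bind Lgr4 and Lgr5 and thereby remove Rnf43 and Znrf3, ligases that take Frizzled off the cell surface, and several targets of the pathway are themselves its inhibitors.

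Promoter windows of 250 bases before the transcription start, from RefSeq (GRCm38.p6), were found for 7 of the 10 genes and not for Lgr5, Znrf3 or Notum. They were searched on both strands for the TCF/LEF core CTTTGA and for CTTTGAT, which contains the core. Of the 32851 windows of this length, 13.8% held the core and 3.21% the longer form. Those of Sp5 and of 1 of the 2 Tnfrsf19 starts are shown because they held the core, and those of Lgr4, which was lower in old SM6 ISCs, and Axin2, a widely used Wnt target, because these letters were not in them. All are printed 5′ to 3′ on the gene's strand, with the core, or its reverse complement, in capitals.
Sp5 (chr2:70474673-70474922, plus strand): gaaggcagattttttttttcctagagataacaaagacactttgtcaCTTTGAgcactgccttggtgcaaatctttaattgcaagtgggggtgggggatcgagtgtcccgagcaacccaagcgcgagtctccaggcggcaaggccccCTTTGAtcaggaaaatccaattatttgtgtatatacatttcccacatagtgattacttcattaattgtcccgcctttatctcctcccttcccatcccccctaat
Tnfrsf19 (chr14:61037988-61038237, minus strand): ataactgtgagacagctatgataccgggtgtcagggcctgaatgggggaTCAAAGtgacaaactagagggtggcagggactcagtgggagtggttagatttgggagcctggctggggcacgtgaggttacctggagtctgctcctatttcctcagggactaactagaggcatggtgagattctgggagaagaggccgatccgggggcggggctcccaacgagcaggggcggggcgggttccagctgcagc
Lgr4 (chr2:109917397-109917646, plus strand): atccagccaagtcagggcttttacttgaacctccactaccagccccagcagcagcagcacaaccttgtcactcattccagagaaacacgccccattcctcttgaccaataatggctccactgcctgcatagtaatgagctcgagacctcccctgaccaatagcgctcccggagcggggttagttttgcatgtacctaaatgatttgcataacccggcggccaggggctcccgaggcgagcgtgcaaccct
Axin2 (chr11:108920099-108920348, plus strand): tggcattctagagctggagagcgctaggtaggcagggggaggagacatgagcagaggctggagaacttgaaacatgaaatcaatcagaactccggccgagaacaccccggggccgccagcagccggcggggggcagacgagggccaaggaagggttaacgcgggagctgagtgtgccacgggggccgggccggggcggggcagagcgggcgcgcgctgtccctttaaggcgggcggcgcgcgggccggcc
In Sp5 the matches began 204 and 104 bases before the start, and the second was part of the longer form. In Tnfrsf19 the match began 201 bases before the start and was also of the longer form. The windows of Rnf43, Nkd1 and Ascl2 and the second Tnfrsf19 window held no match. A match of letters is a description and not a binding site.

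Lgr4 and Znrf3 were lower in old than in young ISCs of the SM6 isolation, by 2.55-fold and 2.01-fold. The other 7 genes tested did not pass the threshold in either isolation. Values are CPM (each count relative to its library's total, with totals adjusted by TMM factors), given for replicates 1, 2 and 3, and group values are mean ± SD (n = 3). Age effects are log2 fold changes, old minus young, from edgeR's quasi-likelihood test, and a gene was called at a Benjamini-Hochberg adjusted p under 0.05 over all 13368 genes. The plot of CPM by library shows every value of the 9 genes.

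**Figure D1:**
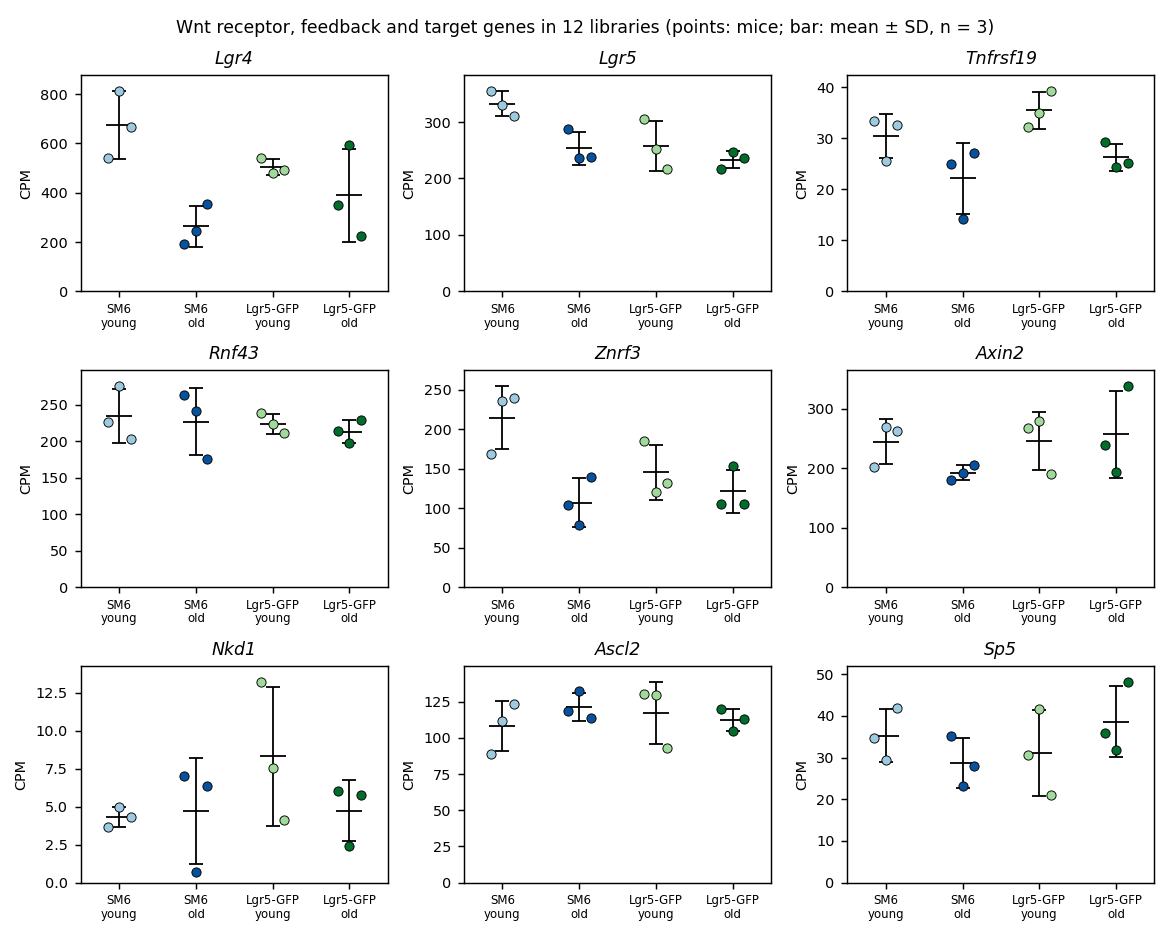
CPM (y axis, linear from 0) of the 9 genes past the filter in the 4 groups, with 1 point per mouse and bars for mean ± SD (n = 3). For Lgr4 the 3 old SM6 libraries (193 to 355) lay below the 3 young ones (540.1 to 814), and for Znrf3 likewise (78.0 to 139 against 169 to 239.9). For Rnf43 and Ascl2 young and old overlapped in both isolations.

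Lgr4 (ENSMUSG00000050199, GRCm38 chr2:109917647-110014257, plus strand) encodes a seven-transmembrane R-spondin receptor found through much of the crypt. In SM6 ISCs it was at 540.1, 814 and 668 CPM in young and 193, 244 and 355 CPM in old mice. Every old library lay below every young one. The means were 674 ± 137 and 264 ± 82.5 CPM, a log2 fold change of -1.35 (SE 0.26, 95% interval -1.89 to -0.82, adjusted p = 0.00364). The call held with any 1 of the 12 libraries left out and was lost with robust fitting of the dispersion (adjusted p = 0.0708). In Lgr5-GFP ISCs it was at 542, 480.2 and 491 CPM in young and 350, 594 and 226 CPM in old mice. The young libraries were close together, and the old ones lay on both sides of them. The change was -0.37 (95% interval -0.89 to 0.15, adjusted p = 0.69). In order of means the groups were SM6 young, Lgr5-GFP young (504 ± 33.4), Lgr5-GFP old (390.0 ± 188) and SM6 old, and each overlapped its neighbour.

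Lgr5 (ENSMUSG00000020140, chr10:115450311-115587780, minus strand), the related R-spondin receptor that defines crypt-base ISCs, was detected at over 200 CPM in every library. In SM6 it was at 356, 329 and 311 CPM in young and 287, 235 and 238 CPM in old mice. These did not overlap, but the change of -0.39 (SE 0.17, 95% interval -0.73 to -0.052) had an unadjusted p of 0.0257 and an edgeR adjusted p of 0.284. In Lgr5-GFP it was at 305, 251 and 217 CPM in young and 217, 246 and 236 CPM in old mice, a change of -0.15 (adjusted p = 0.836) that turned positive (0.062) when library totals alone were used for scaling. The SM6 young libraries lay above all those of the next group, Lgr5-GFP young, and the other groups overlapped. Averaged over the ages, Lgr5-GFP was 0.24 below SM6 on the log2 scale (95% interval -0.48 to -0.0023, edgeR adjusted p = 0.642).

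Within each library the counts of Lgr4 were set against those of Lgr5, a ratio chosen after the values were seen and given without a test. It was 1.52, 2.47 and 2.15 in SM6 young and 0.674, 1.04 and 1.49 in SM6 old. It was 1.78, 1.91 and 2.26 in Lgr5-GFP young and 1.62, 2.41 and 0.955 in Lgr5-GFP old. In this ratio young and old were separate in SM6 and overlapped in Lgr5-GFP.

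Tnfrsf19 (Troy; chr14:60963875-61046490, minus strand) encodes a receptor of the TNF receptor superfamily that binds Lgr5 and is itself a Wnt target. In Lgr5-GFP it was at 32.1, 34.98 and 39.3 CPM in young and 29.3, 24.4 and 25.1 CPM in old mice. All old libraries were below the young ones, yet the change of -0.43 was not called (edgeR adjusted p = 0.635). In SM6 the values were 33.4, 25.5 and 32.5 against 24.9, 14.3 and 27.2 CPM, and overlapped (-0.47, adjusted p = 0.489). Its average age effect was -0.45, with an unadjusted p of 0.0234 and an edgeR adjusted p of 0.276.

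Znrf3 (ENSMUSG00000041961, chr11:5276324-5444847, minus strand) encodes 1 of the 2 related membrane ubiquitin ligases. In SM6 it was at 169, 235 and 239.9 CPM in young and 104, 78.0 and 139 CPM in old mice. No old library reached the lowest young one. The means were 215 ± 39.8 and 107 ± 30.6 CPM, a log2 fold change of -1.01 (SE 0.22, 95% interval -1.46 to -0.55, adjusted p = 0.0115). The call was lost without SM6 young replicate 2 (-0.94, adjusted p = 0.0747) or replicate 3 (-0.92, adjusted p = 0.062), and without SM6 old replicate 1 (-0.97, adjusted p = 0.0726) or replicate 2 (-0.82, adjusted p = 0.103). In Lgr5-GFP it was at 185, 120.1 and 131 CPM in young and 105, 153 and 105 CPM in old mice, which overlapped (-0.28, 95% interval -0.73 to 0.18, adjusted p = 0.758).

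Rnf43 (chr11:87662722-87735539, plus strand), the partner ligase, was close to level across the groups. It was at 226, 275 and 202 CPM in SM6 young and 263, 242 and 176 CPM in SM6 old. In Lgr5-GFP it was at 238, 223 and 211 CPM in young and 213, 198 and 229 CPM in old. The age effects were -0.048 in SM6 (95% interval -0.41 to 0.31, edgeR adjusted p = 0.957) and -0.073 in Lgr5-GFP (adjusted p = 0.95), and both changed sign under other settings. The study's list of differential genes, from full-length libraries of pooled wild-type mice, has Rnf43 and Axin2 lower in old ISCs. Lgr4 and Znrf3 are not on that list. The ratio of Rnf43 to Znrf3 counts, also chosen after the values were seen, ran from 0.843 to 1.34 in SM6 young and from 1.26 to 3.10 in SM6 old. It ran from 1.29 to 1.86 in Lgr5-GFP young and from 1.29 to 2.17 in Lgr5-GFP old, so the ages overlapped in both isolations.

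Axin2 (chr11:108920349-108950783, plus strand), a scaffold of the β-catenin destruction complex and a feedback target, was at 202, 270.5 and 263 CPM in SM6 young and 180.0, 193 and 206 CPM in SM6 old. The lowest young library lay within the range of the old ones, and the change was -0.35 (95% interval -0.76 to 0.065, edgeR adjusted p = 0.498). In Lgr5-GFP the means were 246 ± 49.0 and 257 ± 73.8 CPM in young and old (0.065, edgeR adjusted p = 0.962). The old libraries spread from 194 to 339 CPM. An antisense gene, Gm11670, shares 209 exon bases with Axin2, and whether counting used the strand was not given.

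Nkd1 (chr8:88521354-88594884, plus strand), which binds Dishevelled and dampens the pathway, was near the limit of detection. The counts were 6, 9 and 6 in SM6 young, 9, 1 and 8 in SM6 old, 42, 8 and 10 in Lgr5-GFP young and 9, 3 and 6 in Lgr5-GFP old. The deepest library, Lgr5-GFP young replicate 1, had both the highest count and the highest CPM (13.2, against 0.679 to 7.56 in the other 11). The age effects were 0.079 in SM6 and -0.83 in Lgr5-GFP (-0.22 without that library), neither was called, and each turned sign in other settings. Notum (chr11:120653788-120661175, minus strand), a secreted enzyme that inactivates Wnt ligands, had 0 counts in 10 libraries and 1 count in each of the other 2. The upper limit behind a 0 was set at 3 counts, or 0.945 to 2.84 CPM in those 10 libraries, for counting error alone. Notum was therefore not tested, and it shares 918 exon bases with the antisense genes Myadml2os and Notumos.

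Ascl2 (chr7:142966829-142969264, minus strand), a transcription factor required for ISC identity, was at 89.2, 112 and 124 CPM in SM6 young and 118, 132 and 113 CPM in SM6 old. The ages overlapped, and the change was 0.17 (95% interval -0.20 to 0.54, edgeR adjusted p = 0.775). In Lgr5-GFP it was at 130.1, 129.5 and 92.7 CPM in young and 120.0, 105 and 113 CPM in old (-0.055, adjusted p = 0.964). Sp5 (chr2:70474923-70477729, plus strand), a zinc finger factor and Wnt target whose window held 2 core matches, had means of 35.3 ± 6.30 and 28.7 ± 6.03 CPM in SM6 young and old and of 31.1 ± 10.3 and 38.6 ± 8.57 CPM in Lgr5-GFP young and old. Its age effects were -0.30 in SM6 (edgeR adjusted p = 0.727) and 0.35 in Lgr5-GFP (adjusted p = 0.742).

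In SM6, 2 of the 9 genes were called, both lower in old, where 2.42% of all genes tested were called and 1.77% were called lower. In 3 of the 9 (Lgr4, Lgr5 and Znrf3) all old libraries lay below all young ones, as in 9.78% of all genes. The estimate was below 0 for 7 of 9, as for 50.7% of all genes, and the median was -0.35, against -0.0070 over all genes. In Lgr5-GFP, none was called by edgeR, DESeq2 or limma, 0 had an unadjusted p under 0.05, and 0.471% of all genes were called by edgeR. Only Tnfrsf19 of the 9 had its old libraries all below the young ones, as did 7.95% of all genes. The estimate was again below 0 for 7 of 9, as for 53.6% of all genes, and the median was -0.15 against -0.034.

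**Figure D2:**
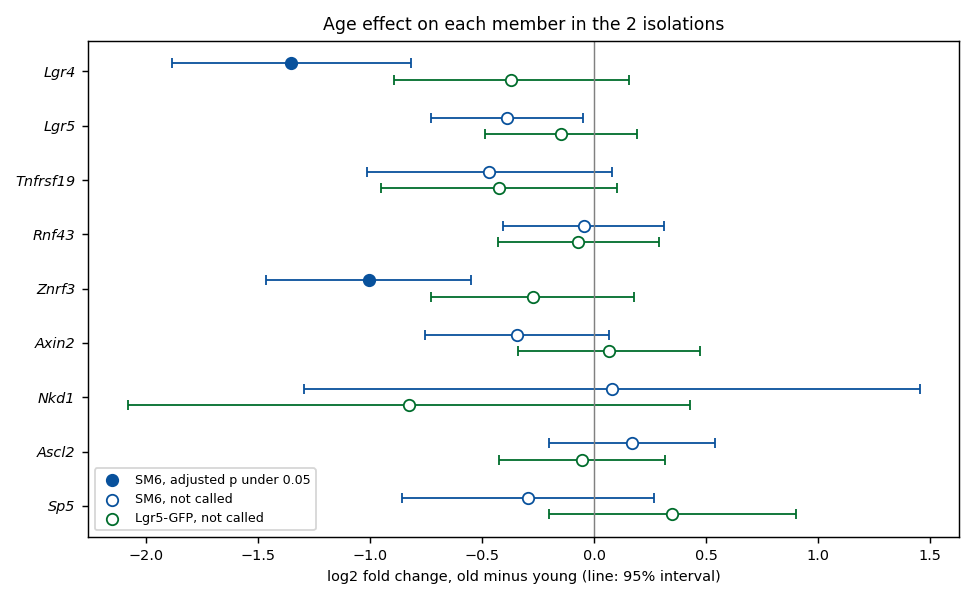
Log2 fold change of each gene, old minus young (x axis), in SM6 (blue) and Lgr5-GFP (green), with 95% intervals from edgeR and filled points for an adjusted p under 0.05. The intervals of Lgr4 and Znrf3 in SM6 lay below 0, at -1.35 and -1.01, as did that of Lgr5, which was not called after adjustment, and all 9 Lgr5-GFP intervals held 0.

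Whether the age effect differed between the isolations was tested as an interaction, Lgr5-GFP minus SM6. The difference was 0.98 for Lgr4 (SE 0.36, 95% interval 0.24 to 1.73, unadjusted p = 0.0118, edgeR adjusted p = 0.347). It was 0.73 for Znrf3 (95% interval 0.090 to 1.38, unadjusted p = 0.0273, edgeR adjusted p = 0.459). None of the 9 was called by edgeR, DESeq2 or limma with the filter used here (edgeR called Lgr4 with no filter beyond 1 count, adjusted p = 0.0181), 2 had an unadjusted p under 0.05, and 0.658% of all genes were called by edgeR. Averaged over both isolations, which use the same libraries again, Lgr4 (-0.86, SE 0.18, adjusted p = 0.00708) and Znrf3 (-0.64, SE 0.16, adjusted p = 0.0227) were called lower. Znrf3 lost this call in 7 of 12 leave-one-out fits (adjusted p from 0.0658 to 0.0848), those without SM6 young replicate 2 or 3, SM6 old replicate 1 or 2, Lgr5-GFP young replicate 1 or Lgr5-GFP old replicate 1 or 3. Lgr4 lost it under robust fitting (adjusted p = 0.102). Over all genes 2.66% were called in this comparison and 2.06% were called lower. For the average isolation effect none of the 9 was called by edgeR, DESeq2 or limma, 1 (Lgr5) had an unadjusted p under 0.05, and 0.352% of all genes were called by edgeR.

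In old Lgr5-GFP ISCs, replicate 2 was the highest of the 3 libraries for both Lgr4 and Znrf3. The same library was also the highest for Sox9 (990.4, 1276 and 817 CPM), Msi1 (36.7, 87.0 and 29.9 CPM) and Gsk3b (165, 238 and 171 CPM), genes introduced below and looked at for this after their values were seen. Of the 9 genes outside the members that are named below as called in SM6, it was the highest for 6. It was the lowest for Olfm4 (7564, 7431 and 8885 CPM) and Sox4 (54.7, 51.2 and 67.5 CPM) and lay between the others for Scn2b (88.0, 87.0 and 73.3 CPM). Without it the Lgr5-GFP age effect was -0.81 for Lgr4 (edgeR adjusted p = 0.169) and -0.48 for Znrf3 (adjusted p = 0.573), and the difference between the isolations was 0.55 for Lgr4 (adjusted p = 0.72). Without old replicate 3, the lowest for Lgr4, the Lgr5-GFP effects were -0.098 for Lgr4 (edgeR adjusted p = 0.959) and -0.19 for Znrf3 (adjusted p = 0.918). Without young replicate 1 that of Znrf3 was -0.057 (edgeR adjusted p = 0.985). Replicate 2 also had the highest sum of 8 enterocyte markers of the old Lgr5-GFP libraries (2339, 11467 and 1653 CPM). Such a sum is weighted to abundant genes, Fabp1 above all (33139 counts over the 12 libraries, against 15141 for Fabp2, the next). Of the 8 markers, 6 were below 0 in the Lgr5-GFP age effect (median -1.14) and 3 were called lower by edgeR. The part of these markers in the values of replicate 2 was not tested.

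The rest of the pathway was described by 6 lists of 100 genes, of which 70 were tested. In SM6, 4 were called lower in old (5.71% of those tested, against 2.42% of all genes) and none higher, and 42 of 70 (60%, against 50.7% of all genes) lay below 0 with a median of -0.15. In Lgr5-GFP 1 was called, lower in old (1.43%, against 0.471%), 32 of 70 (45.7%, against 53.6% of all genes) lay below 0, and the median was 0.063. Of 17 ligands and ligand-processing genes, 4 were tested (Wnt3, Wnt5b, Porcn and Wls) and none was called. The R-spondin genes Rspo1 and Rspo2 were at 0 in every library, and none of the 13 untested genes of this list exceeded 5 counts in a library. Of 18 other receptors 15 were tested and none was called, Frizzled genes, Lrp5 and Lrp6 among them. Of 16 other inhibitors 5 were tested and none was called, with Wif1 at a mean of 0.627 CPM.

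Of 17 cytoplasmic signalling genes, all tested, 1 was called in SM6, where 2.42% of all genes were called. Gsk3b, a kinase that marks β-catenin for degradation, was at 202, 329 and 284 CPM in young and 120.0, 109 and 157 CPM in old mice (-1.08, SE 0.20, edgeR adjusted p = 0.00359). Of 16 genes of the nuclear complex 13 were tested and 1 was called. Crebbp, a coactivator that acetylates histones, was at 255, 326 and 344 CPM in young and 164, 149 and 212 CPM in old mice (-0.82, SE 0.19, edgeR adjusted p = 0.0165). Its call was lost without SM6 young replicate 2 (adjusted p = 0.0853) or 3 (0.087) or SM6 old replicate 1 (0.107) or 2 (0.115). For both genes all old SM6 libraries lay below all young ones, as in 9.78% of all genes. Neither was called in Lgr5-GFP (-0.21 and -0.35, edgeR adjusted p = 0.8 and 0.558).

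Of 18 other targets, all tested, 2 were called in SM6, both lower, where 1.77% of all genes were called lower. Sox9, a transcription factor of crypt progenitors and Paneth cells, was at 1440, 1694 and 1990 CPM in young and 842, 719 and 988 CPM in old mice (-1.01, SE 0.19, edgeR adjusted p = 0.00358). Sox4, a related factor, was at 76.5, 87.0 and 73.7 against 43.6, 34.6 and 56.7 CPM (-0.82, SE 0.21, edgeR adjusted p = 0.036). The call of Sox4 was lost without any 1 SM6 library other than old replicate 3 (adjusted p from 0.0665 to 0.217). Sox9 was also called in the average of both isolations (-0.70, edgeR adjusted p = 0.00324), as were Gsk3b (-0.65, adjusted p = 0.0108) and Crebbp (-0.59, adjusted p = 0.0128). For Crebbp this call was lost without SM6 old replicate 1 (edgeR adjusted p = 0.0512) or 2 (0.0507). In Lgr5-GFP the 1 called gene was Mmp7, a matrix metalloproteinase that Paneth cells also make (-2.61, SE 0.56, edgeR adjusted p = 0.0326). It was at 834, 277 and 121 CPM in young and 57.3, 66.7 and 80.0 CPM in old mice. Of 23 alternatives 15 called Mmp7. Among these was edgeR without both SM6 old replicate 3 and Lgr5-GFP young replicate 1 (-1.52, adjusted p = 0.0081). Without Lgr5-GFP young replicate 1 its change was -1.53 (adjusted p = 0.271), and it was also not called without any 1 of the old Lgr5-GFP libraries, by DESeq2 (adjusted p = 0.0818), with robust fitting (adjusted p = 0.401), with edgeR's own expression filter (adjusted p = 0.0527) or with the share of defensin counts as a covariate (-0.36, adjusted p = 0.895).

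Among 12 stem cell markers outside the Wnt lists, all tested, 5 were called lower in SM6, where 1.77% of all genes were, and the median was -0.49, against -0.0070 over all genes. They were Msi1, an RNA-binding protein of stem cells (-1.94, SE 0.29, edgeR adjusted p = 0.000484), Scn2b (-1.41, SE 0.22, adjusted p = 0.00083), Cdk6, a kinase of the cell cycle (-1.05, adjusted p = 0.00445), Soat1 (-0.96, adjusted p = 0.00359) and Olfm4, a secreted glycoprotein of crypt-base ISCs (-0.84, adjusted p = 0.00342). Olfm4 was at 9320, 11904 and 10962 CPM in young and 5397, 6036 and 6552 CPM in old SM6 ISCs. Msi1 was at 96.5, 152 and 138 CPM in young and 25.7, 33.3 and 41.5 CPM in old. The same 5 were called lower in the average of both isolations, where 2.06% of all genes were, from -1.496 for Msi1 to -0.58 for Olfm4 (adjusted p = 0.0773 for Olfm4 when scaled by library totals alone), and none of the 12 was called in Lgr5-GFP, where the median was -0.16. For Msi1 the Lgr5-GFP change was -1.05 (edgeR adjusted p = 0.0927), and it was called by DESeq2 (adjusted p = 0.0494) and limma (adjusted p = 0.0226). Without Lgr5-GFP old replicate 2 it was -1.66 and was called by edgeR as well (adjusted p = 0.0014). With no filter beyond 1 count edgeR called both Msi1 (-1.07, adjusted p = 9.8e-05) and Scn2b (-0.69, adjusted p = 0.0439) in Lgr5-GFP.

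**Figure D3:**
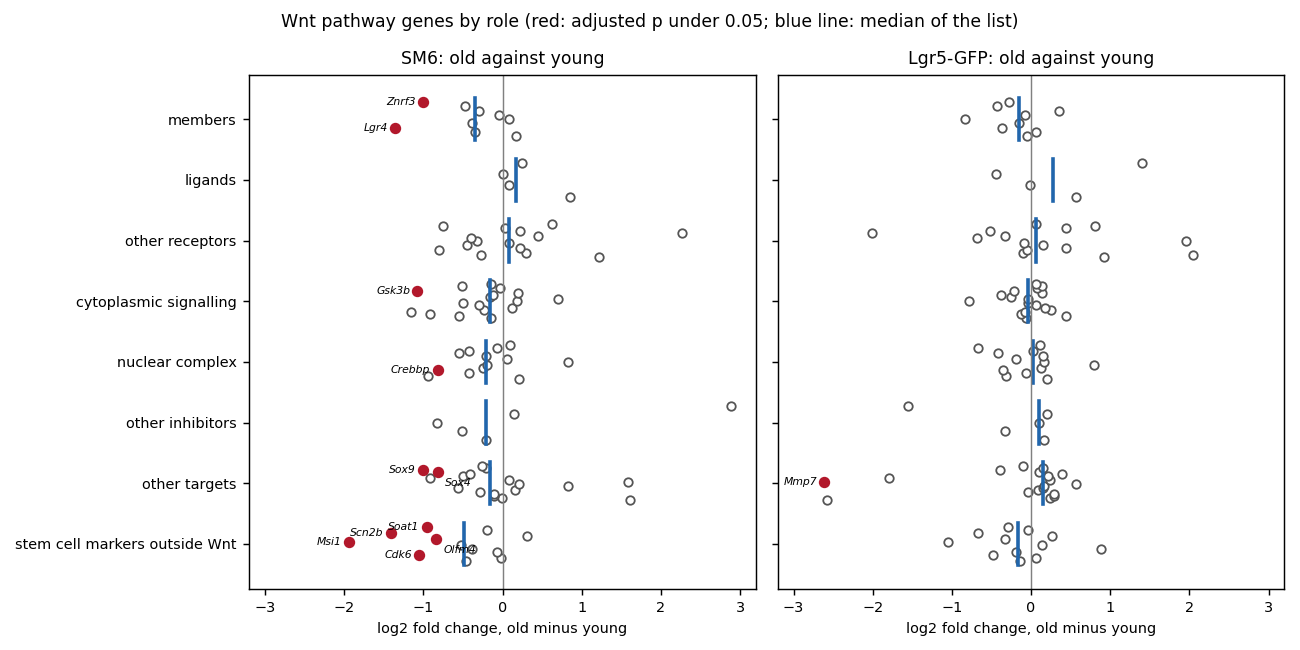
Log2 fold change, old minus young (x axis), of each tested gene of the 10 members, of 6 Wnt pathway lists and of stem cell markers outside Wnt, in SM6 (left) and Lgr5-GFP (right), with 1 point per gene, red where the edgeR adjusted p was under 0.05 and a blue line at each median. The called genes lay below 0 in both panels, and only Mmp7 was called in Lgr5-GFP.

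The genes whose level across the 12 libraries was nearest to that of 3 members were found by the root mean square (RMS) difference of centred log2(CPM + 1) values, among 6286 genes with a mean of at least 20 CPM. For Lgr4 they were Foxo3 (0.155), Adam10 (0.169) and Sdc4 (0.171), where the median over those genes was 0.685. For Znrf3 they were Fam120a (0.146), Sox9 (0.147) and Tnrc6c (0.158), with a median of 0.546. For Lgr5 they were Kdm5a (0.133), Ubn2 (0.146) and Atp2b1 (0.147), with a median of 0.362. Lgr4 and Znrf3 differed from each other by 0.324 and Lgr4 and Lgr5 by 0.559. All these values share the same libraries, and they are descriptions without a test.

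In SM6 the sums of goblet and enterocyte markers were higher in old than in young, and those of the other cell types overlapped. Over all genes in SM6, 0.643% were called higher in old, and in 7.74% every old library lay above every young one. In Lgr5-GFP 0.284% of all genes were called lower. In these bulk samples fewer cells of a type and less RNA per cell cannot be told apart. The summed level of 7 goblet cell markers was 5705 to 9116 CPM in SM6 young and 17307 to 18224 CPM in SM6 old, with no overlap, and 5 of the 7 were called higher. The sum of 8 enterocyte markers was 1506 to 1629 CPM in young and 2173 to 8710 CPM in old, again with no overlap, and 4 of 8 were called higher. The sum of 8 Paneth cell markers was 10794 to 68881 CPM in young and 44691 to 276322 CPM in old, with 1 of 8 called. Old replicates 1 and 2 were at 44697 and 44691 CPM, within the young range. Tuft cell sums were 2.77 to 8.50 CPM in SM6 young and 0.779 to 19.97 CPM in SM6 old. Sums of 8 cell cycle markers were 1430 to 1828 CPM and 1219 to 1486 CPM. Both overlapped, with none called. In Lgr5-GFP the goblet sums were 5298 to 13740 CPM in young and 3153 to 5495 CPM in old, with none called. The enterocyte sums were 1320 to 2566 CPM and 1653 to 11467 CPM, the highest in old replicate 2. Of the 8 enterocyte markers, 3 were called lower and 6 had estimates below 0 (median -1.14). The sums follow abundant genes such as Fabp1 and need not move with most of the list. The Paneth sums there were 44230 to 251780 CPM in young and 18414 to 31297 CPM in old, with 3 of 8 called lower. The sums of 7 enteroendocrine markers were 641 to 1232 CPM in SM6 young and 858 to 2809 CPM in SM6 old, with all 7 estimates above 0 and none called, and 98.3 to 191 CPM and 44.7 to 133 CPM in young and old Lgr5-GFP. The part of these markers in the changes of Lgr4 and Znrf3 was not tested. In the isolation effect 5 of 7 enteroendocrine and 5 of 7 goblet markers were called lower in Lgr5-GFP, where 0.352% of all genes were called in either direction, and their part in the isolation effect of Lgr5 was not tested either. Immune sums and stromal and endothelial sums stayed under 30 CPM, with Cd79a, Itgax, Col3a1, Pdgfra and Kdr at 0 in every library. Leaving out the 2 libraries with the highest Paneth sums (SM6 old replicate 3 and Lgr5-GFP young replicate 1), a choice made after seeing the data, Lgr4 was at -1.62 (edgeR adjusted p = 0.000362) and Znrf3 at -1.24 (adjusted p = 0.00086) in SM6.

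**Figure D4:**
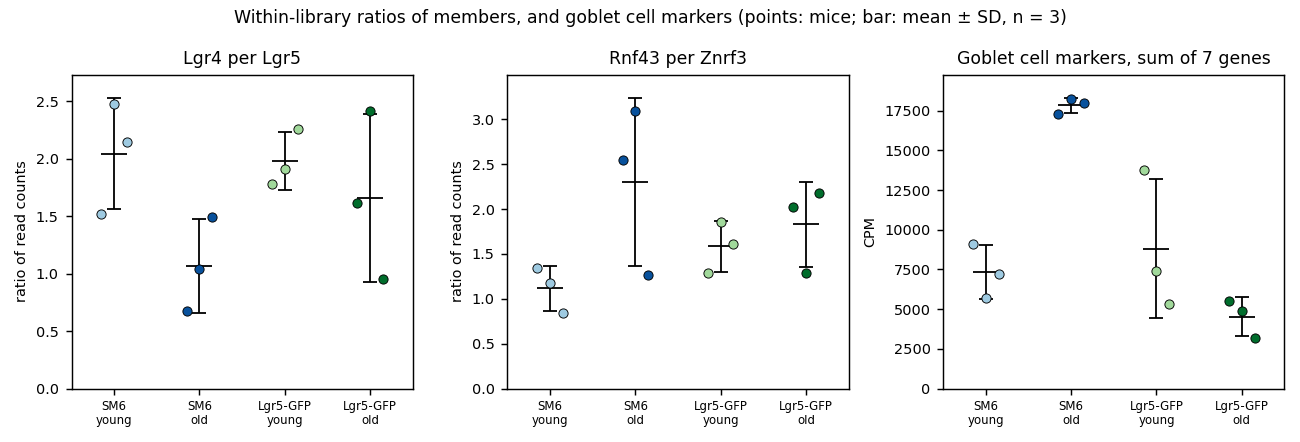
Ratio of Lgr4 to Lgr5 counts, ratio of Rnf43 to Znrf3 counts, and summed CPM of 7 goblet cell markers (y axes, linear from 0) in the 4 groups, with 1 point per mouse and bars for mean ± SD (n = 3). The Lgr4 to Lgr5 ratio was 0.674 to 1.49 in SM6 old and 1.52 to 2.47 in SM6 young, and the goblet sums were higher in all 3 SM6 old libraries than in the other 9.

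The share of genes called lower in old SM6 ISCs also moved with exon length. With the tested genes ranked by length and cut into 4 classes of like size, it, from the shortest class to the longest, was 0.538%, 1.47%, 2.25% and 2.84%, and the share called higher was 1.38%, 0.629%, 0.299% and 0.269%. Lgr4 (5884 exon bases) was in the third class, with the uncalled Tnfrsf19 (4738) and Axin2 (5506), and Znrf3 (7893) was in the fourth. Lgr5 (10264) and Rnf43 (6558), which were not called, were in the fourth as well, and Ascl2 (1623) and Sp5 (2100) were in the first. In Lgr5-GFP the shares called lower were 0.628%, 0.12%, 0.12% and 0.269%, and those called higher 0.299%, 0.24%, 0.12% and 0.0898%. The part of length in the SM6 changes was not tested.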

How the data were processed

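The authors sequenced 3′-biased libraries of ISCs, aligned the reads to GRCm38 with STAR 2.4.2a and counted them over GENCODE vM15 genes with featureCounts. The deposited table holds these raw counts, 1 column for each of the 12 libraries. Reads carried molecular identifiers, but collapsing them is not stated, so the upper limit given for a count of 0 covers counting error only. The 95% intervals of fold changes come from the fit and include the spread between mice. Groups came from sample titles. The 3 mice of a group were separate animals, and all replicate pairs differed by more than sampling noise (chi-square per degree of freedom 3.90 to 53.7). Totals of 970472 to 3815425 counts set the precision, which is low for Nkd1 and Notum.

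As in the study, a gene entered the fit with more than 5 reads and at least 1 CPM in 1 or more libraries, which gave 13368 genes. In R 4.3.3, edgeR 4.0.16 (TMM factors, quasi-likelihood test, 1 mean per group, all 12 libraries, common dispersion 0.0434, two-sided tests) gave 5 comparisons, and p-values were adjusted by Benjamini-Hochberg over all genes tested. The study limited its list of differential genes to other libraries, so the test was chosen here to suit counts. Alternatives were DESeq2 1.42.0, limma 3.58.1 (voom with quality weights), robust fitting, other scaling and filters, a defensin covariate, a replicate block, fits within an isolation and leaving out libraries. The steps were tested on simulated data. Gene positions and exon overlaps came from GENCODE vM21 on the same build. Figures were drawn with matplotlib 3.10.9.

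The members and lists were chosen with earlier results of these data known. Named genes were the 10 members and, from each other pathway list and comparison, up to 3 called genes by smallest adjusted p. For Lgr5 and each called member the 3 nearest genes were named. Stem cell marker calls past the third, and the genes named as at 0, as not called or as sharing exon bases, were named outside this rule.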

Additional observations from a re-analysis of the deposited data

Results flagged for a closer look

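The age effect of 2 of the 18 genes of the list of other Wnt targets differed between the isolations by the interaction test, which called 0.658% of all genes, with estimates of opposite sign in the isolations. Mmp7 is also 1 of the 8 Paneth cell markers, all of which were called lower in this comparison (median -4.97). For Mmp7 the difference, Lgr5-GFP minus SM6, was -4.20 on the log2 scale (SE 0.78, edgeR adjusted p = 0.00989), from 1.59 in SM6 (adjusted p = 0.143) and -2.61 in Lgr5-GFP (adjusted p = 0.0326). Mmp7 was at 161, 97.0 and 70.8 CPM in SM6 young and 139, 144 and 712 CPM in SM6 old. For Bambi, a decoy receptor of TGF-β signals, the difference was -4.19 (SE 0.96, edgeR adjusted p = 0.0367), from 1.61 in SM6 (adjusted p = 0.272) and -2.58 in Lgr5-GFP (adjusted p = 0.1). Bambi was at 8.50, 6.65 and 2.17 CPM in SM6 young, 10.9, 4.07 and 40.7 CPM in SM6 old, 48.2, 17.02 and 12.004 CPM in Lgr5-GFP young and 7.33, 3.25 and 1.93 CPM in Lgr5-GFP old. Both genes were highest in SM6 old replicate 3 and Lgr5-GFP young replicate 1, the libraries in which defensin genes took 23.7% and 24.0% of counts, against 1.29% to 12.7% in the other 10. With the defensin share as a covariate the differences were -0.40 for Mmp7 (edgeR adjusted p = 0.922) and -0.61 for Bambi (adjusted p = 0.933). With robust fitting the difference of Mmp7 was not called (edgeR adjusted p = 0.358). Without both libraries it was -1.89 (edgeR adjusted p = 0.0237), and the SM6 effect of Mmp7 was 0.37 (adjusted p = 0.632). Without SM6 old replicate 3 alone, that SM6 effect was 0.37 (edgeR adjusted p = 0.795). It was called without Lgr5-GFP young replicate 1 (1.59, adjusted p = 0.0472) and with no filter beyond 1 count (1.58, adjusted p = 3.93e-14). For Bambi the SM6 effect was 0.32 without SM6 old replicate 3 (edgeR adjusted p = 0.9) and was called with no filter beyond 1 count (1.60, adjusted p = 0.00738). The Lgr5-GFP effect was -1.66 without Lgr5-GFP young replicate 1 (edgeR adjusted p = 0.514), and it was called without SM6 old replicate 3 (adjusted p = 0.022), without Lgr5-GFP young replicate 3 (0.0466), within the isolation alone (0.0247) and with no filter beyond 1 count (4.42e-07). Without SM6 old replicate 3 the difference of Bambi was -2.89 (edgeR adjusted p = 0.206), and without Lgr5-GFP young replicate 1 it was -3.28 (adjusted p = 0.199). The call of Bambi was also lost without SM6 young replicate 2 or 3 or Lgr5-GFP old replicate 2 or 3, and by DESeq2, limma, robust fitting and edgeR's own expression filter.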

How the results depend on the processing

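The number of members called in SM6 was 2, and 1 with robust quasi-likelihood fitting; leaving out 1 library gave 1 to 2. In the average of both isolations it was 2, and 1 with robust fitting; leaving out 1 library gave 1 to 2. Znrf3 was the gene that lost the call in these leave-one-out fits. Lgr4 was called in all 12 leave-one-out fits in SM6 (-1.61 to -1.15) and lost the call under robust fitting (edgeR adjusted p = 0.0708 in SM6 and 0.102 in the average); the causes were not tested. For the difference of age effects 0 members were called, and 1 with no filter beyond 1 count (Lgr4, adjusted p = 0.0181). In Lgr5-GFP and for the isolation effect the count was 0 in every setting run. Scaling by library totals alone moved the median of all genes to -0.16 in SM6 and 0.16 in Lgr5-GFP.

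Reversed signs concerned uncalled estimates. In SM6, Nkd1 was at -0.089 with totals alone, -0.61 by limma, -0.43 with the defensin covariate, -0.21 without both libraries of highest Paneth sums and -0.33 to 0.62 with 1 library left out. Rnf43 in SM6 was at 0.11 without both libraries and -0.15 to 0.11 with 1 left out. In Lgr5-GFP with totals alone Lgr5 was at 0.062, Rnf43 at 0.13 and Ascl2 at 0.15; without both libraries Lgr5 was at 0.0076 and Ascl2 at 0.050; and Nkd1 was at 0.015 with the defensin covariate. With 1 library left out, Lgr5-GFP estimates ran from -0.20 to 0.037 for Ascl2, -0.18 to 0.23 for Axin2 and -0.017 to 0.27 for Sox4, and the average of Ascl2 from -0.018 to 0.11.

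Same-numbered libraries of different groups did not deviate together (18 pairs, r -0.072 to 0.046), and 4 of 12 libraries were nearest to their own number, so the numbers were not taken as pairs. With a replicate block, Lgr4 in SM6 was at -1.34 (edgeR adjusted p = 0.00322), Znrf3 at -1.01 (0.0142) and Nkd1 at -0.038, and the counts of members called were unchanged in all 5 comparisons. Depth limits Nkd1, Notum, most ligands and the tested pathway genes of few counts, and an uncalled change is not shown to be absent.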
